A study of Mus musculus with 12 samples.

Results

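Collagens are the triple-helical proteins of the extracellular matrix. Fibrillar collagens assemble into the cables that give a tissue its tensile strength, basement membrane collagens form the sheets that surround adipocytes, vessels and other cells, and the remaining families decorate fibrils, build beaded filaments or anchor cells to the matrix. In adipose tissue they are made mainly by fibroblasts and adipocyte progenitors, with contributions from adipocytes and vessel cells, and the matrix is remodelled as the tissue expands. The collagen genes described here are the 40 genes with a symbol of the form Col, number, a, number, in the platform annotation, out of 20358 genes on the array. They were measured by 1861 of 241576 probe sets, each naming that gene alone, and fell into 11 fibrillar, 8 basement membrane and 21 other collagens.

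The tissue was visceral fat of male C57Bl/6J mice aged 20 weeks, measured by 12 Affymetrix arrays of the type Mouse Gene 1.0 ST, 3 for each of 4 diets. All mice, the controls included, ate a diet with 20% shortening and 8.68% Trans fatty acids (TFA), both by weight, and their mothers had been placed on the same regimen at 6 weeks of age, 3 weeks before mating. The TFA group drank plain water, MSG+TFA had 0.75 g/L monosodium glutamate in the drinking water, ASP+TFA had 0.25 g/L aspartame, and ASP+MSG+TFA had both additives at these doses. Pups were weaned at 4 weeks onto the regimen of their mother. There was no group without Trans fat, so every difference below is on a high Trans fat background. Each array held RNA pooled from several mice, and the dissected fat combined epididymal, omental and mesenteric depots with fat around the reproductive organs. P-values therefore measure the spread between pools. In such tissue fewer cells of a type and less RNA per cell cannot be told apart.

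A gene's value on an array is the median log2 intensity of its probe sets, between 3 and 114 of them for a collagen. As a yardstick of dim signal, the 90th percentile of the mean values of 1177 olfactory and vomeronasal receptor genes was taken, which was 6.61. Of the 40 collagens, 12 had a mean above this dim level, and 28 lay at or below it. The 12 were the fibrillar Col1a1, Col1a2 and Col3a1, the basement membrane Col4a1, Col4a2, Col15a1 and Col18a1, and Col6a1, Col6a2, Col6a3, Col8a1 and Col14a1 of the other families. Adipocyte markers were high throughout, with array medians of their 14 genes between 12.57 and 12.97, and all 15 fibroblast and progenitor markers had means above the dim level.

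Some arrays stood apart before any comparison. The median receptor gene on 4 arrays (TFA 1, TFA 2, MSG+TFA 1 and MSG+TFA 2) read 6.40 to 6.76, against 5.44 to 5.66 on the other 8 arrays. These 4 arrays of raised receptor signal lay only in diets without aspartame. Within their diets, against TFA 3 and MSG+TFA 3, all 12 collagens above the dim level were lower on these 4 arrays, with a median difference of -0.24. The 11550 genes above that level had a median difference of -0.20 in the same comparison. Separately, Crisp1, an epididymal secretory gene, read 5.60 to 6.50 on 1 array of each diet (TFA 2, MSG+TFA 2, ASP+TFA 3 and ASP+MSG+TFA 3) and 12.43 to 13.85 on the others. Pancreas acinar markers had an array median of 11.02 on TFA replicate 2 and 5.25 to 6.41 elsewhere, and liver markers read 10.78 on ASP+MSG+TFA replicate 1 and 9.55 on MSG+TFA replicate 3 against 5.56 to 7.26 elsewhere.

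The 12 collagens above the dim level were higher on average in each additive diet than in TFA, and most in ASP+MSG+TFA, but none of these differences passed the test. Against TFA all 12 were above 0 in each of the 3 diets, with medians of 0.21 in MSG+TFA, 0.24 in ASP+TFA and 0.61 in ASP+MSG+TFA, on the log2 scale. Without Col18a1, whose level passed the dim level only in part of the diets, they were 0.20, 0.22 and 0.59. The medians over all 40 collagens were 0.08, -0.03 and -0.04. Leaving out 1 array moved the MSG+TFA median of the 12 between 0.00757, when TFA replicate 1 was dropped, and 0.39, when MSG+TFA replicate 1 was. It was 0.07 and 0.09 when MSG+TFA replicate 2 or 3 was dropped, and 0.32 for TFA replicate 3. The ASP+TFA median was 0.02 without ASP+TFA replicate 3, 0.43 without ASP+TFA replicate 2 and 0.14 without TFA replicate 1, and the ASP+MSG+TFA median stayed between 0.47 and 0.73. The 3 comparisons share the TFA arrays. Among all genes above the dim level, 57.5%, 67.6% and 67.0% were above TFA in the same order, with medians of 0.03, 0.13 and 0.13. With calls defined by 1.4-fold or more and an adjusted p below 0.05, limma called 0 of 40 collagens in each of these comparisons, and 0% of all genes. Unadjusted, 0 of 40 collagens had p under 0.05 in MSG+TFA (1.09% of all genes higher and 1.06% lower), 1 higher and 3 lower in ASP+TFA (22.6% of all genes, 6.94% higher and 15.7% lower) and 9 higher and 4 lower in ASP+MSG+TFA (28.7%, 9.15% higher and 19.6% lower). TFA replicate 3, the TFA array of low receptor signal, bore on these counts, since without it 7 of 40 collagens were called in ASP+TFA, where 26.6% of all genes were, and 9 of 40 in ASP+MSG+TFA, where 29.7% were. The F test over all 4 diets called 0 collagens and 0% of all genes, with a smallest adjusted p of 0.255 for a collagen, 2 collagens and 18.1% of all genes at an unadjusted p under 0.05, and 4 of 40 collagens called without TFA replicate 3, where 18.6% of all genes were.

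**Figure D1:**
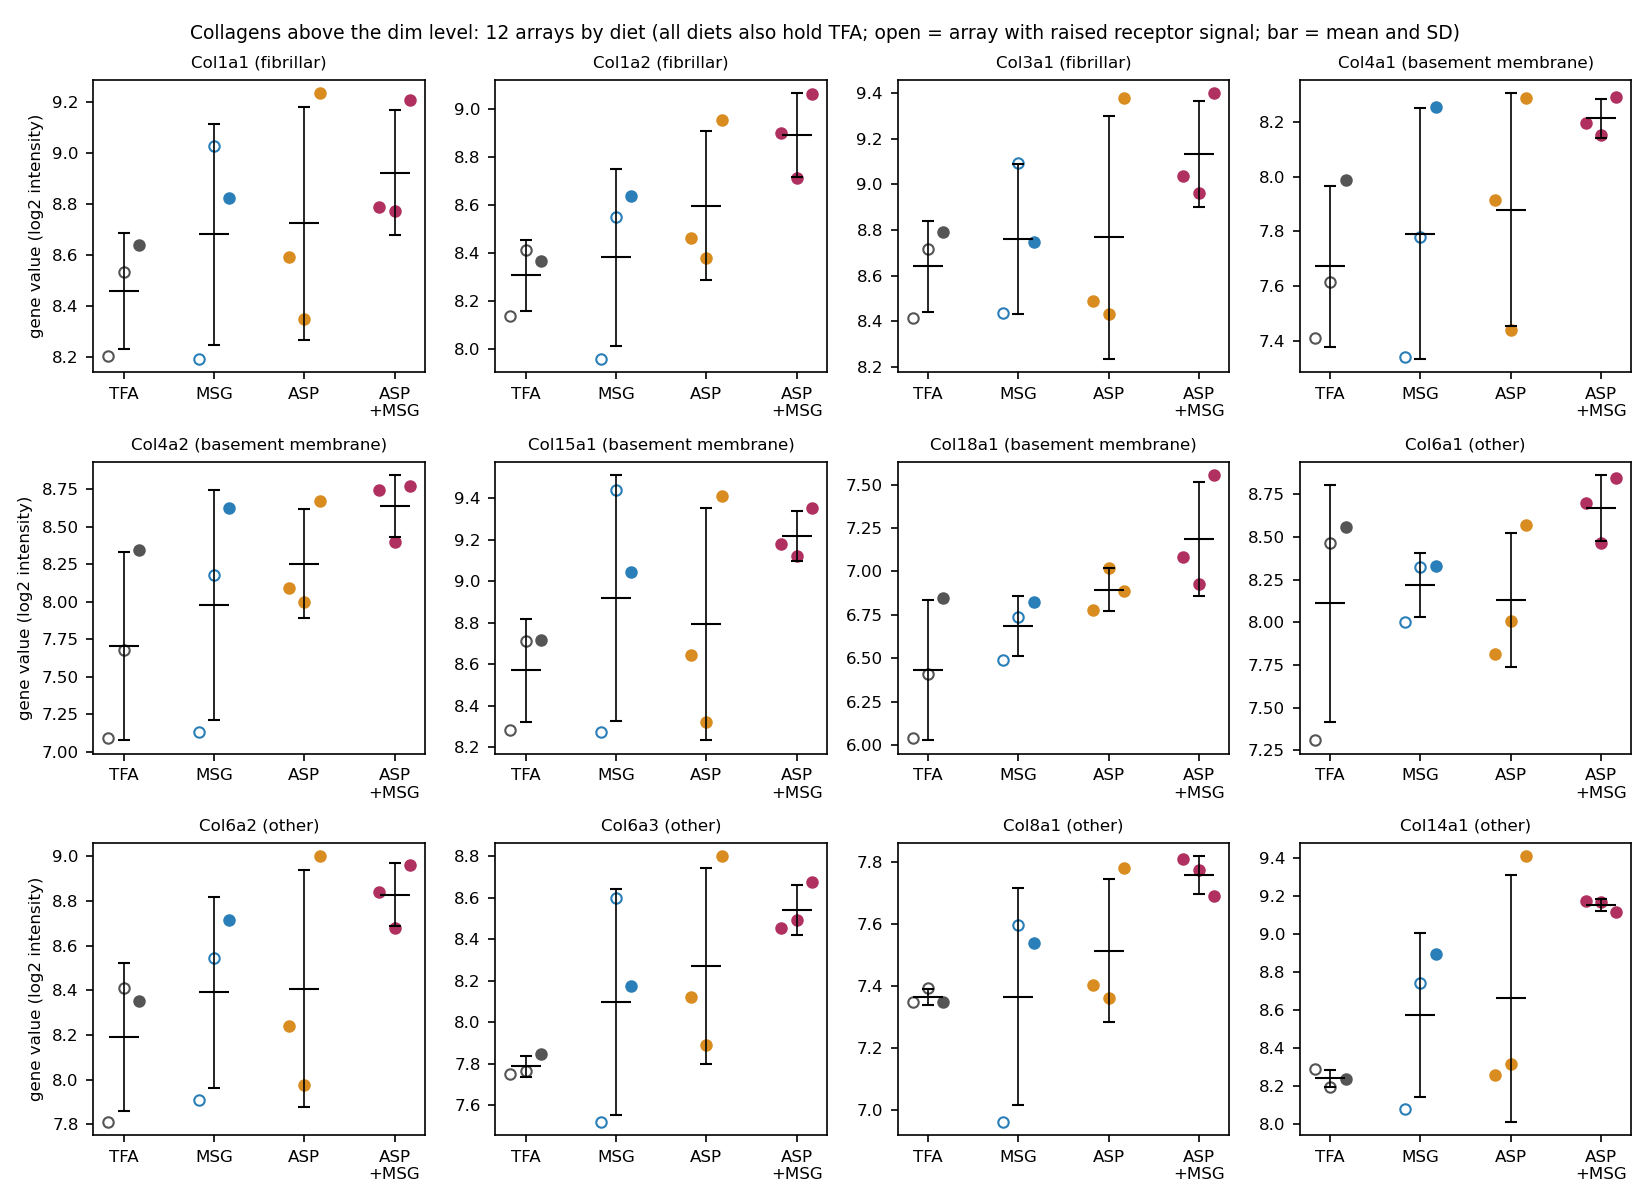
Gene value (log2 intensity, vertical axis) of the 12 collagens above the dim level on each array, by diet, with the mean and SD of 3 arrays as bars and open points for arrays of raised receptor signal. ASP+MSG+TFA points lie above all TFA points in 11 of 12 panels, and the highest ASP+TFA point is replicate 3 in 11 of 12 panels.

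Among fibrillar collagens, 3 genes of the common fibrils were above the dim level. Col1a1 and Col1a2 encode the chains of type I collagen, the main fibril of connective tissue, and Col3a1 encodes type III collagen, which assembles with it. Col1a1 read 8.20, 8.53 and 8.64 on the TFA arrays, 8.19, 9.03 and 8.82 in MSG+TFA, 8.59, 8.35 and 9.23 in ASP+TFA and 8.79, 8.77 and 9.21 in ASP+MSG+TFA. Col1a2 read 8.13, 8.41 and 8.37 in TFA, 7.96, 8.55 and 8.64 in MSG+TFA, 8.46, 8.38 and 8.95 in ASP+TFA and 8.90, 8.71 and 9.06 in ASP+MSG+TFA. Col3a1 read 8.41, 8.72 and 8.79 in TFA, 8.44, 9.09 and 8.75 in MSG+TFA, 8.49, 8.43 and 9.38 in ASP+TFA and 9.04, 8.96 and 9.40 in ASP+MSG+TFA. For all 3 genes the ASP+MSG+TFA arrays lay above every TFA array, while MSG+TFA and ASP+TFA overlapped TFA. The difference of ASP+MSG+TFA from TFA was 0.46 ± 0.27 (SE) for Col1a1, 0.59 ± 0.21 for Col1a2 and 0.49 ± 0.26 for Col3a1, which is 1.38-, 1.5- and 1.41-fold. Their adjusted p in limma was 0.262, 0.130 and 0.230, and the interval for Col1a2 ran from 0.12 to 1.05 at 95% confidence.

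The 4 basement membrane collagens above the dim level also had their highest mean in ASP+MSG+TFA. Col4a1 and Col4a2 encode the 2 chains of the type IV network found in nearly every basement membrane. Col4a1 read 7.41, 7.62 and 7.99 in TFA, 7.34, 7.78 and 8.26 in MSG+TFA, 7.92, 7.44 and 8.29 in ASP+TFA and 8.20, 8.15 and 8.29 in ASP+MSG+TFA. Col4a2 read 7.09, 7.68 and 8.34 in TFA, 7.13, 8.18 and 8.63 in MSG+TFA, 8.09, 8.00 and 8.67 in ASP+TFA and 8.75, 8.40 and 8.77 in ASP+MSG+TFA. Both genes were lowest on replicate 1 of TFA and MSG+TFA, arrays of raised receptor signal, and had no overlap between ASP+MSG+TFA and TFA. Col4a2 was 0.93 ± 0.39 above TFA in ASP+MSG+TFA (1.91-fold, adjusted p 0.154), and Col4a1 was 0.54 ± 0.26 above it (1.46-fold, adjusted p 0.194). Within TFA and MSG+TFA, Col4a2 was lower on the raised arrays than on the remaining array of the same diet, by a difference of -0.97. For Col4a1 this difference was -0.59.

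Col15a1 and Col18a1 encode the multiplexins, collagens of basement membrane zones whose C-terminal ends can be released, endostatin in the case of Col18a1. Col15a1 read 8.29, 8.71 and 8.72 in TFA, 8.27, 9.44 and 9.04 in MSG+TFA, 8.64, 8.32 and 9.41 in ASP+TFA and 9.18, 9.12 and 9.35 in ASP+MSG+TFA. Col18a1 read 6.04, 6.41 and 6.85 in TFA, 6.49, 6.74 and 6.82 in MSG+TFA, 6.78, 7.02 and 6.89 in ASP+TFA and 7.08, 6.93 and 7.56 in ASP+MSG+TFA. The mean of Col18a1 over the diets without aspartame was 6.56, below the dim level, and it counts among the 12 through its mean of 7.04 in the aspartame diets, so its place among them supports no difference. In ASP+MSG+TFA its difference was 0.76 ± 0.22 (1.69-fold, interval 0.27 to 1.24, adjusted p 0.123), against 0.65 ± 0.32 for Col15a1 (1.56-fold, adjusted p 0.200). In ASP+TFA Col18a1 was 0.46 ± 0.22 above TFA (adjusted p 0.233), with arrays that overlapped.

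Col4a1 and Col4a2 are shown by their promoters because the 2 genes lie head to head, on opposite strands of chromosome 8 with transcript starts 21 bases apart, so that their promoter windows share 78 bases. The windows run from 250 bases before to 50 after the start, from RefSeq on GRCm38.p6. Col4a1 lies at chr8:11312777-11313076 on the minus strand and Col4a2 at chr8:11312555-11312854 on the plus strand. Col1a2 at chr6:4505368-4505667 and Col3a1 at chr1:45311288-45311587, both on the plus strand, are fibrillar members set beside them. Capitals mark the CCAAT motif, the GC box GGGCGG and the TATAAA motif, each searched on both strands, with no overlap between marked matches.
Col4a1: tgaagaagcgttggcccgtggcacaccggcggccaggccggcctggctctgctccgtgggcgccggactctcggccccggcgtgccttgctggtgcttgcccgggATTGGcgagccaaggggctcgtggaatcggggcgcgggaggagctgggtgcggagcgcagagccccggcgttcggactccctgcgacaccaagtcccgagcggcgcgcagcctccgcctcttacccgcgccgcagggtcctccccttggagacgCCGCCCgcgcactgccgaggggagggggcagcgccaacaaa
Col4a2: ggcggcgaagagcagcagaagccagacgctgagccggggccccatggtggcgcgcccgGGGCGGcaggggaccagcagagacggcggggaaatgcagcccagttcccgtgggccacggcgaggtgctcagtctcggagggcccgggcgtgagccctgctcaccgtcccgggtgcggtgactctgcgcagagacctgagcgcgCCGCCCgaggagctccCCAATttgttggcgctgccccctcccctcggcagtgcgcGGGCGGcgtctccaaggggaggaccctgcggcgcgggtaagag
Col1a2: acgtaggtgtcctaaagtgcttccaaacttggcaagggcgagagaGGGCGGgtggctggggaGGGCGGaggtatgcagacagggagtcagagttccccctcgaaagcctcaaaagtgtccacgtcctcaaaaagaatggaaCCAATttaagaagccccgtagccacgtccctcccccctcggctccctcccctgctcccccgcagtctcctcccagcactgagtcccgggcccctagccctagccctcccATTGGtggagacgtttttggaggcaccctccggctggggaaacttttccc
Col3a1: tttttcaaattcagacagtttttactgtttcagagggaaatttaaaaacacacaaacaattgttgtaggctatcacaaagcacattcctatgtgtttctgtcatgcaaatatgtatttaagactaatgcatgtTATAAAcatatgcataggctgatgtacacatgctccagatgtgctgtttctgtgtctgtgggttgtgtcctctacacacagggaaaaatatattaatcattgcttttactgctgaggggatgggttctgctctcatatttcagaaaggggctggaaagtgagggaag
CCAAT in either direction was present in the windows of Col4a1, Col4a2 and Col1a2, and in 37.4% of 32851 promoter windows of this length. GGGCGG was found in the same 3 windows, and in 35.7% of all windows. The Col3a1 window held neither and had 1 TATAAA match, which 13.6% of all windows hold. Of the 40 collagens 32 were in the promoter table with 35 windows, of which 34.3% held CCAAT, 57.1% GGGCGG and 14.3% TATAAA. Col1a1, Col2a1, Col4a3, Col5a2, Col9a3, Col12a1, Col14a1 and Col22a1 were not matched.

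Over the 12 arrays Col4a1 and Col4a2 moved together, with Pearson's r of 0.926 (permutation p 2e-05, adjusted over 10 pairs 6.67e-05) and Spearman's rho of 0.958 (permutation p 1e-05, adjusted 5e-05). The relation was still present without the 2 arrays farthest from the median (r = 0.903) and over the 8 arrays with low receptor signal (r = 0.892, exact permutation p 0.000372). Chains that share a molecule or a fibril behaved alike in the fibrillar group. For Col1a1 and Col3a1 r was 0.947 (permutation p 1e-05, adjusted 5e-05) and rho 0.923 (permutation p 6e-05, adjusted 0.0002), with r = 0.927 without the 2 farthest arrays and 0.944 over the 8 arrays. For Col1a1 and Col1a2 r was 0.898 (permutation p 0.00017, adjusted 0.000425) and rho 0.888 (permutation p 0.00024, adjusted 0.0006), with r = 0.845 without the 2 farthest arrays and 0.889 over the 8 arrays. A p of 1e-05 is the smallest that 100000 resamples can give. The permutations treat the 12 arrays as exchangeable, although they fall in 4 diets, so these p-values do not allow for diet. On deviations from the diet means r was 0.901 for Col4a1 and Col4a2, 0.956 for Col1a1 and Col3a1, and 0.943 for Col1a1 and Col1a2.

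Correlation of this kind was general among the collagens above the dim level. As a description, the median r over their 66 pairs was 0.838 on 12 arrays, which share normalization and tissue composition, and r was above 0 in all 66. The type VI chains Col6a1 and Col6a3 stood at the low end, with r = 0.594 (permutation p 0.0387, adjusted 0.043) and rho = 0.594 (permutation p 0.0462, adjusted 0.0577), r = 0.629 without the 2 farthest arrays and 0.596 over the 8 arrays (exact permutation p 0.125). Col6a1 and Col6a2, which lie on the same chromosome, had r = 0.846 (permutation p 0.00023, adjusted 0.00046) and rho = 0.839 (permutation p 0.00106, adjusted 0.00177), with r = 0.845 without the 2 farthest arrays and 0.796 over the 8 arrays. Col4a3 and Col4a4, type IV chains best known from the kidney glomerulus, are also neighbours in the genome, but both were dim here and r was 0.136 (permutation p 0.676, adjusted 0.676) and rho 0.266 (permutation p 0.404, adjusted 0.404). Among 378 pairs of collagens at or below the dim level the median r was 0.351. Of the 10 pairs tested, 9 had an adjusted p under 0.05 for r, and 7 for rho. Among the 9 are Col4a5 with Col4a6 (r = 0.618) and Col9a1 with Col9a2 (r = 0.643), all dim genes. Over the 8 arrays with low receptor signal their r was 0.57 and 0.209 (exact permutation p 0.138 and 0.622). On deviations from the diet means their r was 0.386 and 0.524. For Col6a1 that r was 0.482 with Col6a3 and 0.795 with Col6a2.

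**Figure D2:**
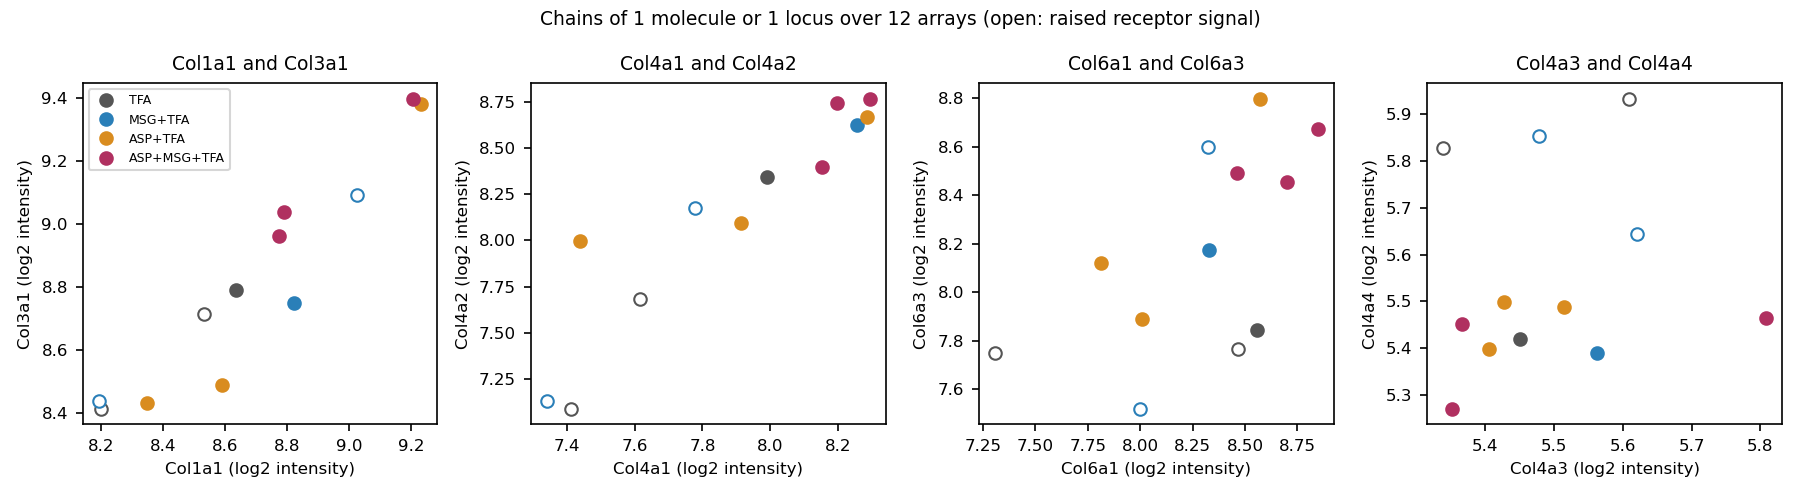
Gene values (log2 intensity on both axes) of 4 pairs of collagen chains on 12 arrays, coloured by diet, with open points for arrays of raised receptor signal. Col1a1 with Col3a1 and Col4a1 with Col4a2 fall along a line (r = 0.947 and 0.926), Col6a1 with Col6a3 scatter more (0.594) and the dim Col4a3 and Col4a4 show no line (0.136).

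Type VI collagen, of the other families, forms beaded filaments around cells and is abundant around adipocytes. Among the collagens described here, 3 of its chains were above the dim level. Col6a4, Col6a5 and Col6a6 also had means above that level (7.73, 7.43 and 6.66) but were not among these collagens. Their differences from TFA in ASP+MSG+TFA were -0.55 ± 0.46, 0.32 ± 0.265 and 0.08 ± 0.17 (limma adjusted p 0.434, 0.428 and 0.784). Col6a1 read 7.31, 8.47 and 8.56 in TFA, 8.00, 8.32 and 8.33 in MSG+TFA, 7.82, 8.01 and 8.57 in ASP+TFA and 8.70, 8.46 and 8.85 in ASP+MSG+TFA. Col6a2 read 7.81, 8.41 and 8.35 in TFA, 7.91, 8.55 and 8.72 in MSG+TFA, 8.24, 7.98 and 9.00 in ASP+TFA and 8.84, 8.68 and 8.96 in ASP+MSG+TFA. Col6a3, the chain whose C-terminal fragment is endotrophin, read 7.75, 7.76 and 7.85 in TFA, 7.52, 8.60 and 8.18 in MSG+TFA, 8.12, 7.89 and 8.80 in ASP+TFA and 8.45, 8.49 and 8.68 in ASP+MSG+TFA. Col6a1 was the 1 member of the 12 whose ASP+MSG+TFA arrays overlapped TFA, where TFA replicate 1 was far below the other 2. Col6a3 had tight TFA arrays, and both aspartame diets lay above them without overlap. In ASP+TFA it was the 1 of the 12 to do so, where 7.17% of all genes and 11.0% of those above the dim level were higher without overlap. Its difference was 0.48 ± 0.28 in ASP+TFA (1.4-fold, adjusted p 0.294) and 0.75 ± 0.28 in ASP+MSG+TFA (1.69-fold, adjusted p 0.131). In ASP+MSG+TFA, Col6a2 was 0.64 ± 0.29 above TFA (adjusted p 0.174) and Col6a1 0.56 ± 0.31 (adjusted p 0.247).

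Col8a1 encodes a short network-forming collagen of vessel walls and other tissues, and Col14a1 encodes a collagen that binds to the surface of type I fibrils. Col8a1 read 7.35, 7.39 and 7.35 in TFA, 6.96, 7.60 and 7.54 in MSG+TFA, 7.40, 7.36 and 7.78 in ASP+TFA and 7.81, 7.78 and 7.69 in ASP+MSG+TFA. Col14a1 read 8.29, 8.20 and 8.23 in TFA, 8.08, 8.74 and 8.89 in MSG+TFA, 8.26, 8.31 and 9.41 in ASP+TFA and 9.17, 9.17 and 9.12 in ASP+MSG+TFA. For both genes the TFA and the ASP+MSG+TFA arrays formed tight, separate groups, and both single-additive diets spread between or beyond them. Col14a1 was 0.91 ± 0.29 above TFA in ASP+MSG+TFA (1.88-fold, interval 0.27 to 1.56, adjusted p 0.123) and Col8a1 was 0.40 ± 0.18 above it (1.32-fold, adjusted p 0.173).

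In ASP+MSG+TFA against TFA, 11 of the 12 collagens had no overlap between the arrays of the diets, all higher, where 21.4% of all genes above the dim level did so. At an unadjusted p under 0.05, 7 of the 12 were higher, against 14.2% of those genes, and all 7 failed the correction over all genes. The 11 and the 7 include Col18a1, whose mean over the diets without aspartame (6.56) was below the dim level, so its part in these counts supports no difference. Across all 40 collagens, 14 were higher and 2 lower without overlap, against 13.7% and 17.9% of all genes. By class, the number above TFA was 6 of 11 fibrillar, 5 of 8 basement membrane and 9 of 21 other collagens, and 46.0% of all genes lay above TFA. Without the 4 arrays of raised receptor signal, which left 1 array in TFA and 1 in MSG+TFA, all 12 were still above TFA in ASP+MSG+TFA, whereas 8 of 12 were above it in ASP+TFA. With both the raised arrays and the arrays low in Crisp1 as terms in the fit, the medians of the 12 were 0.23 in ASP+MSG+TFA (12 of 12 above TFA) and -0.11 in ASP+TFA (3 of 12).

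**Figure D3:**
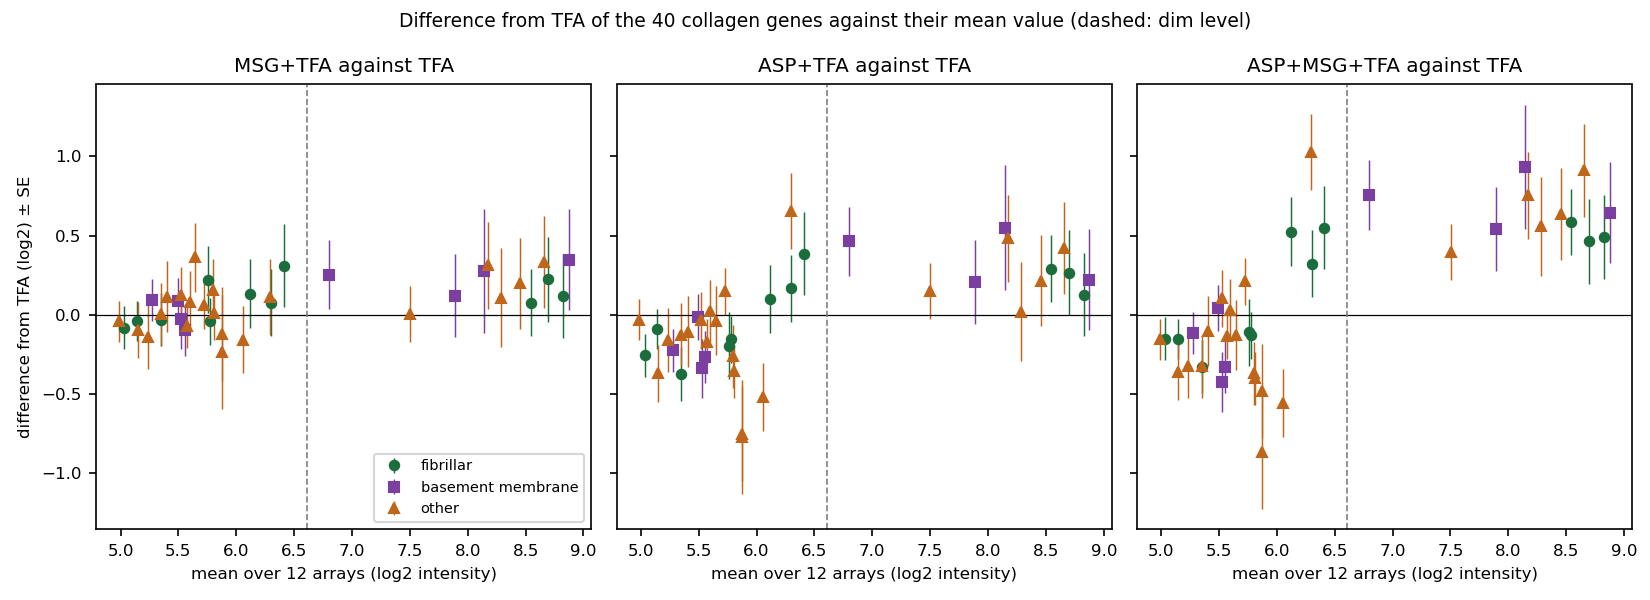
Difference from TFA (log2, vertical axis, with its SE) of the 40 collagens against their mean over 12 arrays (log2 intensity), for the 3 additive diets, with the dim level of 6.61 as a dashed line. All 12 collagens to the right of the line are above 0 in each panel, while 20 of the 28 to the left are below 0 in ASP+MSG+TFA.

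In MSG+TFA against TFA no collagen was called. Of the 40, 27 were above TFA, against 46.6% of all genes, and none was without overlap, against 2.06% of all genes higher and 2.53% lower, and 2.74% higher among genes above the dim level. No collagen had an unadjusted p under 0.05, where 2.15% of all genes did, and the adjusted p was 1 for all 40. The largest difference among the 12 was Col15a1 at 0.35 ± 0.32, with an interval from -0.36 to 1.05. Col8a1 was at 0.00303 ± 0.18 (interval -0.39 to 0.40). In the plot by array, MSG+TFA replicate 1 was below replicates 2 and 3 for all 12 genes, and the diet's SD ran from 0.17 (Col18a1) to 0.77 (Col4a2).

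Adding MSG to aspartame, ASP+MSG+TFA against ASP+TFA, also gave 12 of 12 above 0 (median 0.35), against 49.7% of genes above the dim level, but no collagen had an unadjusted p under 0.05, where 1.58% of all genes did, and the arrays of every collagen overlapped, where 3.31% of all genes were higher and 5.46% lower without overlap. The median of the 12 was 0.19 without ASP+TFA replicate 2 and 0.57 without ASP+TFA replicate 3. Col6a1 had the smallest p of the 12, with 0.54 ± 0.31 (interval -0.15 to 1.23, adjusted p 1). Adding aspartame to MSG, ASP+MSG+TFA against MSG+TFA, called 0 of 40, and 0% of all genes. At an unadjusted p under 0.05 3 of 40 collagens were higher and 3 lower (3.09% and 12.6% of all genes), and 2 of the 12 were higher (4.27% of genes above the dim level). This comparison gave 12 of 12 above 0 with a median of 0.44 (0.20 without MSG+TFA replicate 1), and 5 without overlap, against 67.9% and 11.2% of genes above the dim level, and 7.66% of all genes were higher without overlap. Col1a2 was 0.51 ± 0.21 higher (1.42-fold, adjusted p 0.311) and Col18a1 0.50 ± 0.22 (1.42-fold, adjusted p 0.314). Col18a1, below the dim level over the diets without aspartame, is among the 2 and the 5, and its part in them supports no difference. Neither the interaction of the additives nor the contrast of both MSG diets against both diets without MSG called a collagen, and both called 0% of all genes, with 0 collagens at an unadjusted p under 0.05 (1.22% and 2.84% of all genes). The interaction was 0.43 ± 0.44 for Col6a1, its largest value among the 12, with an interval from -0.54 to 1.41.

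Comparing both aspartame diets with both diets without aspartame, 6 arrays against 6, limma called 1 of the 40 collagens, against 7.63% of all genes, and the call was on a gene below the dim level. All 12 collagens above the level were higher with aspartame (median 0.32, and 0.20 without MSG+TFA replicate 1 or 0.21 without ASP+TFA replicate 3), as were 69.3% of all genes above it, and none was called. Col1a2 differed by 0.40 ± 0.15 (1.32-fold, adjusted p 0.0861), Col18a1, below the dim level on the side without aspartame, by 0.48 ± 0.16 (1.4-fold, adjusted p 0.0620) and Col14a1 by 0.50 ± 0.21 (1.42-fold, adjusted p 0.110). The raised arrays all lay on the side without aspartame. Without them 9 of 12 were higher with aspartame, and with the low-Crisp1 arrays also as a term 5 of 12 were, with a median of -0.06. Calls depended on single arrays, with 6 of 40 collagens called when TFA replicate 3 was dropped (26.6% of all genes), 5 of 40 when MSG+TFA replicate 3 was (23.4%), and 0 when any 1 of the other 10 was.

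The called gene was Col12a1, which encodes type XII collagen, a protein that, like Col14a1, sits on the surface of type I fibrils. It was chosen for description after its values were seen. It read 5.94, 5.66 and 5.94 in TFA, 5.92, 5.77 and 6.19 in MSG+TFA, 6.17, 7.03 and 6.30 in ASP+TFA and 7.03, 7.09 and 6.51 in ASP+MSG+TFA. Every array above 6.19 was from an aspartame diet, and 3 of them (ASP+TFA 2 and ASP+MSG+TFA 1 and 2) lay above the dim level, while the ASP+TFA and ASP+MSG+TFA arrays low in Crisp1, which were high for most of the 12, were not among these 3. The difference with aspartame was 0.78 ± 0.17 (1.72-fold, interval 0.41 to 1.16, adjusted p 0.0483), and 1.26% of all genes were called as higher in this comparison against 6.37% called as lower. Against TFA it was 0.65 ± 0.24 in ASP+TFA (adjusted p 0.190) and 1.03 ± 0.24 in ASP+MSG+TFA (2.04-fold, adjusted p 0.122), without overlap in either.

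The call on Col12a1 lay at the edge of the threshold. Of its 68 probe sets, 58 were higher with aspartame. A mean above the dim level over all 12 arrays was held by 30, and 26 of these were higher (median 0.58). That mean includes the aspartame arrays, so the 26 of 30 support no difference. On its brightest probe set alone the difference was -0.04. With the raised arrays as a term the difference was 0.62 (adjusted p 0.773), and without them it was the same size (adjusted p 0.894). Leaving out 1 array at a time ended the call for 10 of 12 arrays (adjusted p between 0.0704 and 0.127) and the adjusted p was 0.00862 when TFA replicate 3 was dropped and 0.0127 when MSG+TFA replicate 3 was, and the difference stayed between 0.65 and 0.88 throughout.

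**Figure D4:**
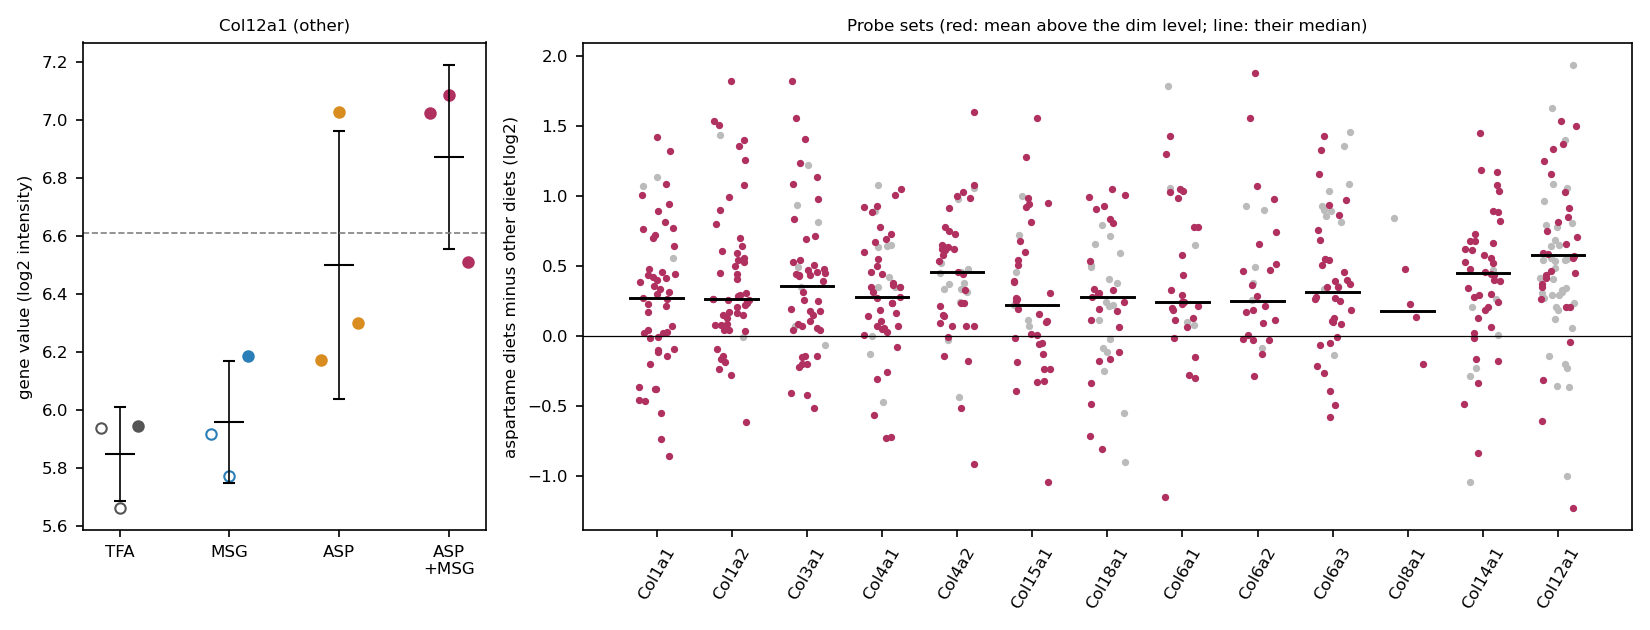
Left, Col12a1 (log2 intensity) on each array by diet, with mean and SD and the dim level as a dashed line. Right, the difference of the aspartame diets from the other diets (log2) for each probe set of 13 collagens, red where the probe set's mean is above the dim level, with the median of red points as a line. Red probe sets of Col12a1 are above 0 in 26 of 30 cases, and Col1a2 in 43 of 50. The mean that sets the colour includes the aspartame arrays.

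Probe sets along a gene were mostly on the same side. In the aspartame comparison the share of bright probe sets that were higher was 43 of 50 for Col1a2, 33 of 39 for Col4a1, 34 of 40 for Col14a1, 18 of 25 for Col18a1 and 34 of 49 for Col1a1. In ASP+MSG+TFA against TFA it was 43 of 50, 33 of 39, 36 of 40, 20 of 25 and 38 of 49 for the same genes. Probe sets of a gene share its RNA and are not replicates. Bright ones were picked by a mean that includes the aspartame arrays. Col18a1 was below the dim level over the diets without aspartame (6.56), so its counts here support no difference. Col8a1 had 5 probe sets, 4 of them bright, so its value rests on few.

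The minor fibrillar collagens of type V, which are built into type I fibrils and limit their width, lay below the dim level. Col5a2 had means of 6.10 ± 0.23 (SD) in TFA, 6.41 ± 0.40 in MSG+TFA, 6.48 ± 0.43 in ASP+TFA and 6.65 ± 0.28 in ASP+MSG+TFA. Col5a3 read 5.93 ± 0.14 in TFA and 6.45 ± 0.20 in ASP+MSG+TFA. Both had no overlap between these 2 diets, where 13.7% of all genes were higher without overlap. The differences were 0.55 ± 0.26 (adjusted p 0.187) for Col5a2 and 0.52 ± 0.22 (adjusted p 0.151) for Col5a3. Col5a1 was 0.32 ± 0.21 above TFA (adjusted p 0.311), with overlap. Their pattern was that of the brighter fibrillar genes, with r = 0.944 between Col5a1 and Col5a2 (permutation p 1e-05, adjusted 5e-05, rho 0.951, permutation p 1e-05, adjusted 5e-05) and 0.857 between Col3a1 and Col5a2 (permutation p 0.00055, adjusted 0.000917, rho 0.839, permutation p 0.00106, adjusted 0.00177). Without the 2 farthest arrays these were 0.942 and 0.689, and over the 8 arrays with low receptor signal 0.956 and 0.803.

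Most collagens of cartilage, skin and other tissues read at or below the dim level. Of the 28, 22 were below TFA in ASP+TFA (78.6%), where 82.3% of the 8808 genes at or below that level were, and 20 in ASP+MSG+TFA (71.4%), against 81.6%. The medians were -0.16 and -0.14 for the 28 collagens, -0.36 and -0.38 for those genes and -0.73 and -0.80 for the receptor genes. In MSG+TFA 13 of 28 were below TFA, against 67.7%. Col9a2, a chain of the cartilage collagen IX, read 6.59, 6.51 and 6.00 in TFA and 5.62, 5.92 and 5.88 in ASP+MSG+TFA, a difference of -0.56 ± 0.21 (adjusted p 0.137). Col10a1, of hypertrophic cartilage, read 6.75, 6.80 and 5.47 in TFA and 5.28, 5.59 and 5.56 in ASP+MSG+TFA (-0.87 ± 0.36, adjusted p 0.153), and Col7a1, of the anchoring fibrils of skin, differed by -0.40 ± 0.17 (adjusted p 0.153). For Col9a2 and Col10a1, TFA replicates 1 and 2, arrays of raised receptor signal, read above TFA replicate 3.

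These values lie in the range of the receptor genes. On the 4 raised arrays Col10a1 was 1.12 higher within the diets, against TFA 3 and MSG+TFA 3, Col9a3 0.80 and Col2a1, the main cartilage fibril, 0.53. The direction also depends on scaling. After quantile normalization of gene values 6 of the 28 were below TFA in ASP+MSG+TFA, with a median of 0.15, while the 12 brighter collagens were above TFA under that scaling too.

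The genes that process, bind, sense and degrade collagen were described from 6 lists of textbook members, and in ASP+MSG+TFA against TFA none of their members was called, while 4, 4, 6, 3, 4 and 8 had an unadjusted p under 0.05 in the order given here, all but 1 of them higher, where 28.7% of all genes had such a p, 9.15% higher, and 14.2% of genes above the dim level were higher. Of 19 genes of collagen modification and folding 17 were above TFA (median 0.34), among them Crtap, part of the prolyl 3-hydroxylation complex (0.80 ± 0.25, adjusted p 0.123), and Colgalt1, which adds galactose to hydroxylysine (0.60 ± 0.19, adjusted p 0.123). Of 14 genes of procollagen cleavage and cross-linking 10 were above (median 0.25), including Pcolce, an enhancer of C-propeptide removal (0.65 ± 0.20, adjusted p 0.123). Of 15 fibril-associated proteoglycans and glycoproteins 13 were above (median 0.50), with Fmod, which binds type I fibrils, at 0.77 ± 0.21 (adjusted p 0.123). Basement membrane partners were above in 14 of 17 (median 0.32), led by the laminin chain Lama2 (0.87 ± 0.30, adjusted p 0.126), and collagen receptors in 10 of 11 (median 0.43), where Mrc2, an endocytic collagen receptor, was at 1.18 ± 0.38 (adjusted p 0.123). Genes of collagen breakdown and its inhibitors were above in 9 of 13 (median 0.63).

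The breakdown list held Timp1, the member of the 6 lists with the largest difference from TFA. It also held Mmp14, the 1 called gene, in the comparison of both aspartame diets with both diets without aspartame. In that comparison 7.63% of all genes were called, 1.26% as higher. Mmp14, a membrane-bound collagenase, was 0.88 ± 0.22 above TFA in ASP+MSG+TFA (1.84-fold, adjusted p 0.123), and with aspartame against without it the difference was 0.61 ± 0.16 (1.52-fold, adjusted p 0.0483). Its arrays overlapped between the 2 sides, and leaving out any 1 of 10 arrays left 0 genes called in that comparison. Timp1, a tissue inhibitor of metalloproteinases, was 1.65 ± 0.41 above TFA in ASP+MSG+TFA (3.14-fold, adjusted p 0.123), and Timp3, which binds to the matrix, 0.69 ± 0.18 (1.61-fold, adjusted p 0.123). Of all genes above the dim level 67.0% were above TFA in this comparison.

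Markers of several cell types moved with the collagens. The array median of the 15 fibroblast and progenitor markers was 9.24 to 9.65 in TFA, 9.06 to 10.03 in MSG+TFA, 9.50 to 10.52 in ASP+TFA and 10.00 to 10.45 in ASP+MSG+TFA, and 12 of 15 were above TFA in ASP+MSG+TFA (median 0.36). The array median of the 16 macrophage markers was 8.75 to 9.43 in TFA and 9.82 to 10.06 in ASP+MSG+TFA, with 15 of 16 above TFA (median 0.71). All 10 endothelial markers were above TFA in that diet (median 0.42), while 8 of 14 adipocyte markers were (median 0.06). Mesothelial markers and most smooth muscle and pericyte markers were above TFA too, as were 67.0% of all genes above the dim level. Over the 12 arrays the median r with the 12 collagens was 0.897 for the fibroblast, 0.849 for the macrophage and 0.723 for the adipocyte marker median. The part of these cell types in the collagen values was not tested.

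The arrays low in Crisp1 were also often the arrays with the highest collagen. Within ASP+TFA, replicate 3 was the highest of 3 arrays for 11 of the 12 collagens, with a median of 0.71 above the mean of the other 2, and within ASP+MSG+TFA replicate 3 was the highest for 10 of 12 (median 0.20). In MSG+TFA and TFA the array low in Crisp1 was highest for 5 and 3 of 12, by medians of 0.28 and 0.08. ASP+MSG+TFA replicate 3 held the top value of all 12 arrays for 6 of the 12 collagens and ASP+TFA replicate 3 for 4, whereas MSG+TFA replicate 1 held the lowest for 7 and TFA replicate 1 for 5. Without ASP+TFA replicate 3 the median of the 12 in ASP+TFA against TFA was 0.02 (0.24 with it). The part of these arrays in the diet differences was not tested.

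**Figure D5:**
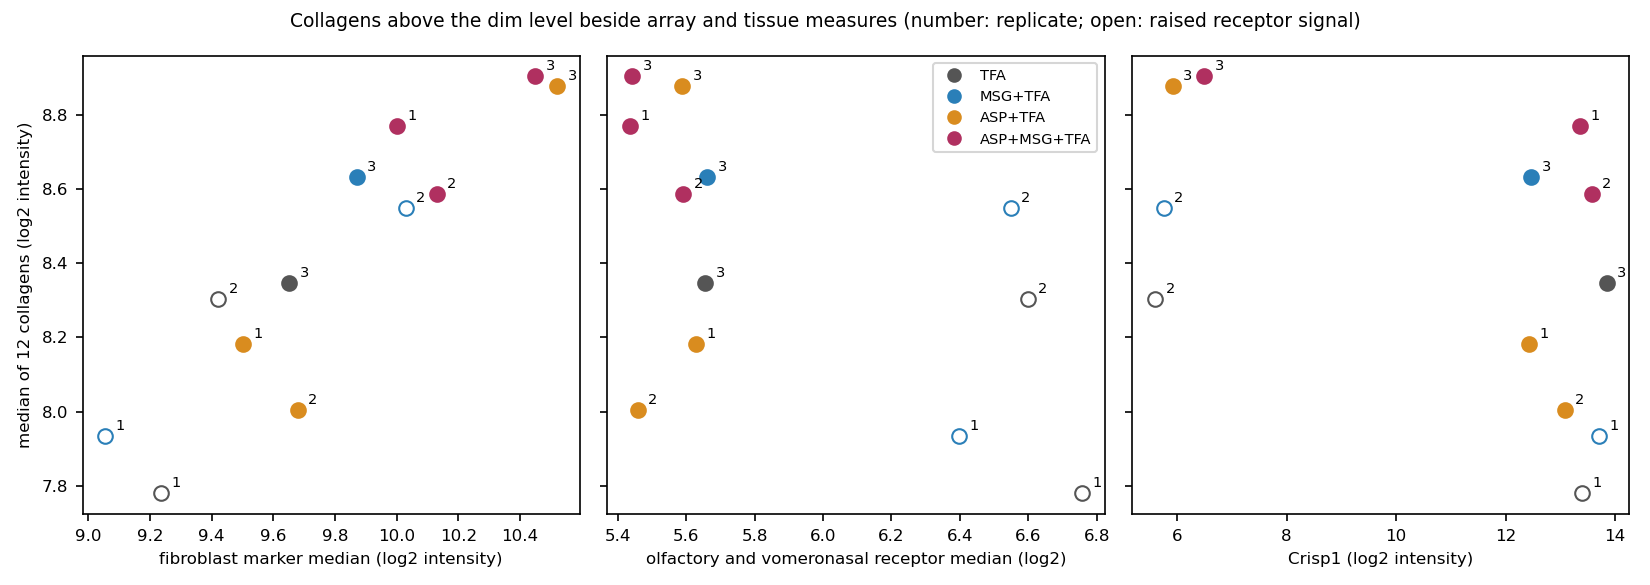
Median of the 12 collagens above the dim level (log2 intensity, vertical axis) on each array against the median of 15 fibroblast markers, the median of olfactory and vomeronasal receptor genes, and Crisp1 (log2 intensity). Colours are diets, numbers are replicates and open points are arrays of raised receptor signal. The collagen median runs from 7.78 on TFA replicate 1 to 8.90 on ASP+MSG+TFA replicate 3.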

How the data were processed

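The authors deposited linear intensity values per probe set for 12 Affymetrix Mouse Gene 1.0 ST arrays, made from 250 ng of total RNA each. Per the study's methods and the submitters' notes these came from Partek, with GCRMA background adjustment and quantile normalization, yet the spread of gene values and the receptor signal still differed between arrays. Array median intensities were 144.9 to 150.6. Scanner files were not used here. Precision is limited by having 3 arrays per diet.

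Intensities were turned to log2 values. Probe sets naming 1 gene (212138 of 241576) were kept, 4672 naming several and 24766 unnamed were left out, and a gene's value was the median of its probe sets. Symbols were updated through a RefSeq table of GRCm38.p6 (17626 current, 2743 replaced, 53 kept as given), used for names, and for the promoter windows, which come from the same assembly. Of collagen probe sets, 2 naming several genes were left out.

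With limma 3.58.1 (R 4.3.3; tables read by data.table, version 1.17.8), 1 mean per diet was fitted to 12 arrays (8 residual and 2.73 prior degrees of freedom), with two-sided moderated tests, adjusted after Benjamini and Hochberg over 20358 genes, and 95% intervals. A call needs an adjusted p under 0.05 and at least 1.4-fold, the limits of the study's methods, without the fold limit for the interaction and F test. Correlations used two-sided permutation tests (Python 3.11.15, 100000 resamples). On simulated data for ASP+TFA against TFA over 20358 genes, 8.96% of 1.5-fold, 59.7% of 2-fold and 98.5% of 4-fold changes were recovered, with 7 false calls. The simulated noise was independent between genes and arrays, without the array-wide shifts seen here, and changes were placed outside the most variable genes. These shares are therefore not the power of the real arrays.

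The collagens and gene lists were chosen with earlier results of these data known. Values per array are given for members above the dim level that were among the 5, 4 and 6 highest of their class, which were all 12, with the 3 of smallest p in each contrast and Col1a2, a gene of the study's quantitative PCR. Lists of other genes were named by up to 3 members. Alternatives were quantile normalization, median centring, other summaries of probe sets, no dim genes, a floor at 6.61, other variance models, array terms, the replicate block and leaving out each array. Replicate numbers are labels in the sample titles. Deviations of same-numbered TFA and MSG+TFA arrays correlated at 0.593, 0.632 and 0.661, so these were taken as pairs from the data alone. In both diets replicates 1 and 2 are raised arrays. No other combination of diets had all its correlations over 0.1.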

Additional observations from a re-analysis of the deposited data

How the results depend on the processing

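Signs and calls were compared with the reported ones under quantile normalization, centring, other probe-set summaries, a floor, other variance models, array terms and leaving out each array. The median of the 12 collagens above the dim level stayed above 0 in each contrast of single diets under each setting except for ASP+TFA against TFA with the raised arrays and the arrays low in Crisp1 as terms (-0.11). With the same terms it was 0.23 for ASP+MSG+TFA against TFA, 0.056 for ASP+MSG+TFA against MSG+TFA and -0.056 for both aspartame diets. Over all 40 collagens quantile normalization moved the median to 0.14 in ASP+TFA, 0.28 in ASP+MSG+TFA, 0.20 in ASP+MSG+TFA against MSG+TFA and 0.13 with aspartame against without. For ASP+MSG+TFA against TFA it was -0.22 on the brightest probe set, 0.20 with the raised arrays as a term and 0.15 without them, where a lone array in TFA and in MSG+TFA is assumed to vary like the other diets. In these cases the cause was not tested.

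The count of called collagens with aspartame against without, 1 as reported, was 0 after quantile normalization, median centring, without dim genes, with a floor at the dim level, in the analysis of variance of the methods, with the raised arrays as a term, without them, and with both terms. It was 2 for the mean of probe sets and 11 for the brightest probe set, where Col12a1 was at -0.044, the reverse of the reported sign. Leaving out 1 array gave 0 to 6 calls, the highest 2 being 6 when TFA replicate 3 was dropped and 5 when MSG+TFA replicate 3 was. Leaving out 1 array also gave 0 to 7 calls in ASP+TFA, 0 to 9 in ASP+MSG+TFA against TFA and 0 to 4 in the F test, in each case with the highest number without TFA replicate 3, the 1 TFA array of low receptor signal. Over all genes the aspartame contrast called 1554 (257 higher, 1297 lower), 0 after quantile normalization or centring, 2452 for the mean of probe sets (181 higher, 2271 lower), 3301 for the brightest probe set (201 higher, 3100 lower) and 59 with both array terms (56 higher, 3 lower). The replicate block left 1 collagen called in that contrast, with 3102 genes called of all, and 0 in MSG+TFA against TFA, also in a fit of those diets alone, which was added after seeing the data, as were both array terms together and the medians without Col18a1. It changed no other call on a collagen. Signal near background limits the 28 collagens at or below the dim level.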

Other observations

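Col26a1 is a collagen by its current symbol, but the platform names it Emid2, so the rule for collagens left it out. It was singled out after its values were seen. Its mean over 12 arrays was 6.48, below the dim level, and it was lower with aspartame than without by a difference of -0.66 ± 0.18 (1.58-fold, limma adjusted p 0.0498) and in ASP+MSG+TFA against TFA by -0.74 ± 0.26 (adjusted p 0.128). In the aspartame contrast the receptor genes, a measure of dim signal, had a median difference of -0.70, with 1121 of 1177 lower and 382 called, and the raised arrays all lay on the side without aspartame. The part of that shift in the value of Col26a1 was not tested.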
